A study of Oryzias latipes with 8 samples.

Results

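The genes described here are those of the DNA replication fork, its polymerases and the origins from which it starts, in sorted cells of the optic tectum of medaka (Oryzias latipes), the visual centre of the fish midbrain. They were found by name: a gene was a member where its symbol in the authors' sheets of changed genes matched a fixed pattern covering the origin recognition complex, the GINS complex, the replicative polymerases, replication factors A and C, the histone chaperones of the fork, topoisomerase II and the SMC family. The pattern found 48 genes, and all 48 had counts in every library and passed the filter on low counts, out of 15640 genes tested. Only 4658 of the tested genes carried a symbol, because symbols were at hand only for genes that the authors had listed as changed between groups. Of the 48 members, 47 were on a sheet of a comparison with the wdr12 GFP-positive cells, so how many members differ in those comparisons is in large part fixed by how they were found. A further 16 symbols of replication genes covered by the pattern, among them orc2, orc6, gins3, pold4 and rfc2, had no listed gene. The 16 include the spelling claspn, whereas the authors list claspin as CLSPN, which is counted below with the accessory and checkpoint genes. Apart from it, they were not analysed here.

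The 8 libraries come from fish of 1 month of age and form 3 groups. The wdr12 GFP-positive cells (n = 3) and wdr12 GFP-negative cells (n = 2) were sorted from a transgenic line in which the promoter of wdr12, a ribosome biogenesis gene, drives green fluorescent protein (GFP) in neuroepithelial cells, the stem-like cells at the tectal margin. The negative sort is a mixture that the submitters describe as cycling progenitors, neurons and glia. The ebf3 GFP-positive cells (n = 3) come from a second GFP line that marks progenitors which have left the cell cycle, and neurons. Tecta were pooled before dissociation, no agent was given to any group, and both control groups come from the same tissue and age as the positive sort. The labels do not say whether replicates came from separate pools of fish, so the p-values cover the spread among these libraries, part or all of which may be technical.

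Replication begins where the origin recognition complex, with Cdc6 and Cdt1, loads the MCM helicase onto DNA, and Cdc7 kinase, Cdc45 and GINS then turn that helicase on. Polymerase alpha with primase lays down primers, polymerase epsilon extends the leading strand and polymerase delta the lagging strand, both held to DNA by the ring-shaped clamp PCNA, which replication factor C loads. In the growing brain these genes are known as marks of cells in cycle, while some relatives of theirs, such as topoisomerase II beta, also work in neurons.

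The 3 positive libraries of the wdr12 line held 8511255 to 11580629 counts each, the GFP-negative libraries 3497101 and 5798458, and those of the ebf3 line 5247836 to 7708019. Median member counts per library were 746.5, 75 and 107 in the same order, and only chaf1b and ASF1B (2 of 2) had a count under 10 in a GFP-negative library, and only cdc6 and ASF1B (2 of 2) in an ebf3 library. Levels are CPM, read counts scaled to a common library size with TMM factors. They are not per transcript length, so levels of different genes are not compared. wdr12 stood at 99.3, 60.6 and 50.6 CPM in its positive sort against 18.5 to 26.6 in the controls, and ebf3 stood at 2257 to 2723 CPM in its own line against 236 to 662 elsewhere. A list of neural progenitor markers, of which 9 of 16 symbols were found (10 genes, 1 of them at 0 in a library), took 0.307 to 0.528% of counts in wdr12 GFP-positive cells, 0.0443 to 0.0455% in GFP-negative and 0.0359 to 0.0662% in ebf3 cells. Mature neuron markers (12 of 19 symbols, 13 genes, none at 0) took 0.164 to 0.218%, 0.465 to 0.501% and 0.526 to 0.584%. Radial glia and astroglia markers (8 genes) took 0.661 to 1.19%, 0.894 to 1.14% and 0.307 to 0.367%. Oligodendrocyte markers (7 genes) took 0.0494 to 0.105%, 0.308 to 0.581% and 0.0192 to 0.0893%. Microglia and leukocyte markers (6 genes) took 0.0189 to 0.0370%, 0.0454 to 0.0544% and 0.00637 to 0.0109%. Erythrocyte markers (5 of 13 symbols, 6 genes, none at 0) took 3.52 and 13.6% of counts in the GFP-negative libraries and at most 0.0959% elsewhere, although the submitters' description of that sort names no blood cells. The part of these cell mixtures in the results was not tested.

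In the comparison with the sort that lacks GFP, which asks how neuroepithelial cells differ from other tectal cells, 44 of 48 members were higher in wdr12 GFP-positive cells at an adjusted p under 0.05 in edgeR's quasi-likelihood test. Among all genes tested 9.92% were higher, and among genes with a symbol 29.9%. In the other direction 0 members were lower, where 9.84% of all genes tested and 30.7% of those with a symbol were. At an unadjusted p under 0.05 it was also 0, where 14.4 and 38.1% were lower. DESeq2's test gave 0 members as lower too, where it called 1813 genes. The median log2 fold change of the members, in which each unit is a doubling, was 2.79, with a range from -0.20 to 5.06. It was 0.05 for all genes tested and 0.31 for genes with a symbol. For 46 members every positive library stood above every negative library, which held for 25.4% of all genes tested and 44.0% of those with a symbol. In bulk samples, fewer cells of a type and less RNA per cell cannot be told apart.

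Against the ebf3 GFP-positive cells, which serve as a control that has left the cell cycle, 43 members were higher, where 12.7% of all genes tested and 37.9% of genes with a symbol were. The member RPA1 (1 of 2) was lower, where 10.8% of all genes tested and 31.8% of those with a symbol were. The authors had listed that gene only as lower than in ebf3 cells, so it is a member only through that difference. The median log2 fold change of the members was 2.42, from -1.03 to 4.77, beside 0.01 for all genes and 0.28 for genes with a symbol. In 44 members every wdr12 GFP-positive library stood above every ebf3 library (19.9% of all genes, 42.3% of those with a symbol). In 1 it stood below (17.8 and 35.9%). The 41 members higher than in both controls compare with 6.0% of all genes tested and 19.0% of those with a symbol. Both comparisons share the wdr12 GFP-positive libraries, and the authors' sheets chose the members, so these counts describe the set and nothing more is read from them.

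The members were far from uniform in size of difference. Against GFP-negative cells 6 of them had a log2 fold change of at least 4: NASP (1 of 2), top2a, chaf1b, cdc45, smc2 and ASF1B (2 of 2). A further 13 lay between 3 and 4, 15 between 2 and 3 and 10 between 1 and 2. Only 4 lay below 1, namely pola2, top2b, smchd1 and RPA1 (1 of 2). Differences between members were not tested. The median SE of a member was 0.43 in this comparison and 0.36 against ebf3 cells.

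**Figure D1:**
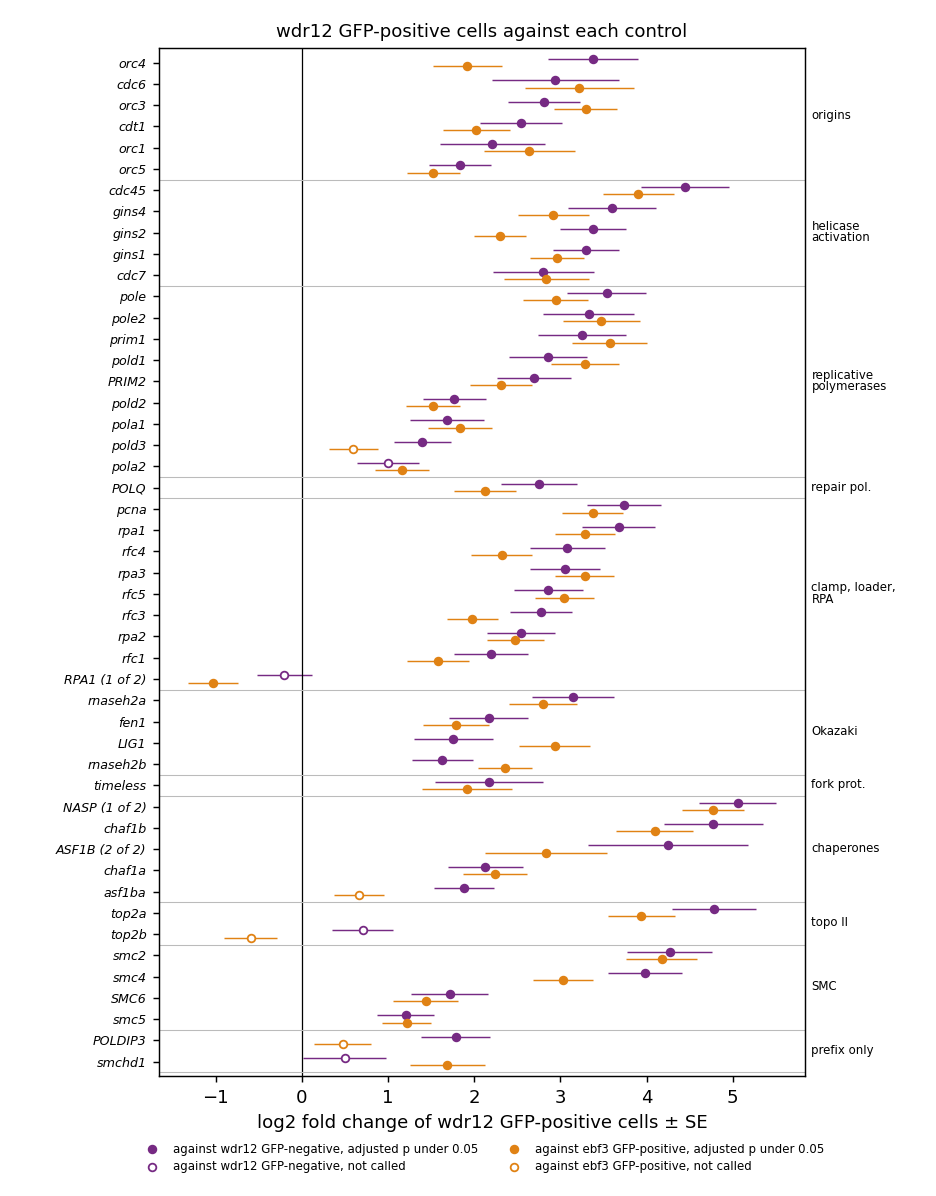
Log2 fold change (x axis, ± SE) of each of the 48 genes in wdr12 GFP-positive cells against GFP-negative cells (purple) and against ebf3 GFP-positive cells (orange), grouped by role; filled points passed an adjusted p of 0.05. Most genes lie between 1 and 5 on both scales, and RPA1 (1 of 2) and top2b lie apart from the rest, at -1.03 and -0.60 against ebf3 cells.

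The origin genes were higher in wdr12 GFP-positive cells throughout: all 6, orc1, orc3, orc4, orc5, cdc6 and cdt1, passed against both controls, with median log2 fold changes of 2.68 and 2.33. orc3 (ENSORLG00000014787), a subunit of the origin recognition complex, stood at 141, 96.4 and 75.4 CPM in the wdr12 GFP-positive libraries, 15.2 and 14.4 in the GFP-negative libraries and 13.1, 12.3 and 6.33 in the ebf3 libraries. The lowest positive library thus stood far above every control library. Its log2 fold change was 2.81 ± 0.42 against GFP-negative (adjusted p = 0.000299) and 3.29 ± 0.36 against ebf3 cells (adjusted p = 2.04e-05). orc5 (ENSORLG00000015908), another subunit, had the smallest difference of the role and stood at 95.9, 77.5 and 49.3 CPM in the wdr12 GFP-positive libraries, 20.9 and 20.8 in the GFP-negative libraries and 26.5, 23.00 and 27.97 in the ebf3 libraries. Here too the groups did not overlap, and the log2 fold changes were 1.83 ± 0.36 (adjusted p = 0.00224) and 1.52 ± 0.31 (adjusted p = 0.00179). orc4 (ENSORLG00000000103), with 3.38 ± 0.52 against GFP-negative cells, had the largest fold change of the origin genes there but only 1.92 ± 0.40 against ebf3 cells.

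Among the loading factors, cdc6 (ENSORLG00000000130), which acts with the origin recognition complex to load the MCM helicase, varied widely between replicates. It stood at 66.8, 18.7 and 23.2 CPM in the wdr12 GFP-positive libraries, 5.87 and 3.61 in the GFP-negative libraries and 6.89, 1.07 and 3.66 in the ebf3 libraries. Positive replicate 1 stood well above replicates 2 and 3, and the ebf3 libraries also ranged widely. Its differences were 2.94 ± 0.74 (adjusted p = 0.0103) and 3.22 ± 0.63 (adjusted p = 0.00141). cdt1 (ENSORLG00000000411), its partner in loading, differed by 2.54 ± 0.47 and 2.02 ± 0.39. orc1 (ENSORLG00000013547), the largest subunit of the complex, differed by 2.21 ± 0.61 and 2.64 ± 0.53. Against GFP-negative cells the calls of cdc6 and orc1 were lost when GFP-negative replicate 1 was left out (adjusted p = 0.0642 and 0.0948), when replicate 2 was (0.127 and 0.179) and without positive replicate 1 (0.0641 and 0.0715), and that of orc1 also without positive replicate 2 (0.0612).

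The genes that turn the loaded helicase on were all higher as well. All 5, cdc45, gins1, gins2, gins4 and cdc7, passed in both comparisons, with medians of 3.37 and 2.92. cdc45 (ENSORLG00000002724), which joins MCM and GINS in the active helicase, stood at 218, 114 and 84.3 CPM in the wdr12 GFP-positive libraries, 8.92 and 3.95 in the GFP-negative libraries and 10.1, 8.69 and 8.99 in the ebf3 libraries. The lowest positive library stood far above the highest control library. The differences were 4.44 ± 0.51 (adjusted p = 7.18e-05) and 3.91 ± 0.41 (adjusted p = 1.8e-05). The GINS subunits gins1 (ENSORLG00000002756), gins2 (ENSORLG00000009515) and gins4 (ENSORLG00000011612) differed by 3.298 ± 0.38, 3.37 ± 0.38 and 3.599 ± 0.51 against GFP-negative and by 2.96 ± 0.31, 2.300 ± 0.31 and 2.92 ± 0.42 against ebf3 cells. They are parts of 1 complex, and their fold changes lay within a log2 unit of each other in each comparison.

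cdc7 (ENSORLG00000004956), the kinase that fires origins, had the smallest fold change of the role against GFP-negative cells and stood at 37.6, 45.1 and 12.9 CPM in the wdr12 GFP-positive libraries, 5.004 and 4.12 in the GFP-negative libraries and 4.27, 5.88 and 3.16 in the ebf3 libraries. The groups did not overlap, but positive replicate 3 stood far below the other two. Its differences were 2.803 ± 0.59 (adjusted p = 0.00333) and 2.83 ± 0.49 (adjusted p = 0.0006), and the first call was lost when the fit left out GFP-negative replicate 2 (adjusted p = 0.0566).

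Most of the replicative polymerase genes were higher in the positive sort. Of 9 genes, 8 were higher against GFP-negative cells and 8 against ebf3 cells, with medians of 2.70 and 2.31, but the gene lacking a call was pola2 in the first and pold3 in the second. pole (ENSORLG00000007834), the catalytic subunit of polymerase epsilon, stood at 176, 112 and 112 CPM in the wdr12 GFP-positive libraries, 7.83 and 14.9 in the GFP-negative libraries and 12.4, 13.9 and 25.8 in the ebf3 libraries. Every positive library stood above every control library by a wide margin, with differences of 3.54 ± 0.46 (adjusted p = 0.000145) and 2.94 ± 0.37 (adjusted p = 5.28e-05). Its accessory subunit pole2 (ENSORLG00000012868) differed by 3.33 ± 0.53 and 3.47 ± 0.45, and the catalytic primase prim1 (ENSORLG00000012281) by 3.25 ± 0.51 and 3.57 ± 0.44. The large primase subunit PRIM2 (ENSORLG00000010147) differed by 2.696 ± 0.43 and 2.31 ± 0.36.

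In polymerase alpha both subunits had smaller fold changes than the primase that works with them, a gap that was not tested. pola2 (ENSORLG00000002903), the accessory subunit, stood at 136, 61.6 and 85.7 CPM in the wdr12 GFP-positive libraries, 45.5 and 49.1 in the GFP-negative libraries and 43.5, 48.01 and 35.3 in the ebf3 libraries. The positive libraries stood above all controls, with replicate 2 the nearest to them. Its log2 fold change of 1.00 ± 0.36 against GFP-negative cells did not pass (adjusted p = 0.0629), and 1.16 ± 0.31 against ebf3 cells did (adjusted p = 0.013). The first passed under upper-quartile scaling (adjusted p = 0.0499), in DESeq2's test (0.0317) and without positive replicate 2 (0.0336), and the second was lost without positive replicate 1 (0.0537). The catalytic subunit pola1 (ENSORLG00000007489) differed by 1.68 ± 0.43 (adjusted p = 0.0114) and 1.83 ± 0.37 (adjusted p = 0.00187); the first call was lost when the fit left out GFP-negative replicate 1 (adjusted p = 0.146) or 2 (0.0664).

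Polymerase delta was listed with 3 subunits, and differences between their fold changes were not tested. pold1 (ENSORLG00000011359), the catalytic subunit, differed by 2.85 ± 0.46 and 3.29 ± 0.40, and the accessory subunit pold2 (ENSORLG00000012796) by 1.77 ± 0.37 and 1.52 ± 0.32. pold3 (ENSORLG00000002322), a further accessory subunit, stood at 148, 116 and 76.04 CPM in the wdr12 GFP-positive libraries, 41.8 and 43.96 in the GFP-negative libraries and 74.3, 82.1 and 68.1 in the ebf3 libraries. It stood above every GFP-negative library in the positive sort (1.399 ± 0.33, adjusted p = 0.00781), but positive replicate 3 lay inside the range of the ebf3 libraries, and that difference did not pass (0.60 ± 0.28, adjusted p = 0.16). Without positive replicate 3 it passed (adjusted p = 0.0408). The call against GFP-negative cells was lost for pold3 without replicate 1 (0.0929) or 2 (0.0767) of those cells and for pold2 without replicate 2 (0.0509).

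POLQ (ENSORLG00000005243), polymerase theta, works in the repair of broken ends and not at the fork, and entered through its name. It stood at 46.9, 48.2 and 33.97 CPM in the wdr12 GFP-positive libraries, 8.05 and 4.81 in the GFP-negative libraries and 10.1, 7.49 and 11.99 in the ebf3 libraries. The groups did not overlap, with 2.75 ± 0.44 (adjusted p = 0.000512) and 2.13 ± 0.36 (adjusted p = 0.000471).

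The clamp, its loader and the single-strand binding proteins held the clamp gene pcna, with the largest share of the members' counts in the positive sort, and also the member that went the other way. Of 9 genes, 8 were higher than in either control, with medians of 2.86 and 2.48 over the 9. pcna (ENSORLG00000002937), the sliding clamp, stood at 3840.4, 2486 and 1988 CPM in the wdr12 GFP-positive libraries, 167 and 249 in the GFP-negative libraries and 209, 244 and 348 in the ebf3 libraries. It alone supplied 28.2 to 29.8% of all member counts in the positive libraries, 12.0 and 15.5% in the GFP-negative and 8.65 to 15.8% in the ebf3 libraries. Its differences were 3.74 ± 0.43 (adjusted p = 7.18e-05) and 3.37 ± 0.35 (adjusted p = 1.8e-05). The clamp loader subunits rfc1, rfc3, rfc4 and rfc5 differed by 2.196, 2.78, 3.08 and 2.86 against GFP-negative cells and by 1.58, 1.98, 2.32 and 3.05 against ebf3 cells. The large subunit rfc1 had the smallest value of these in both comparisons.

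**Figure D2:**
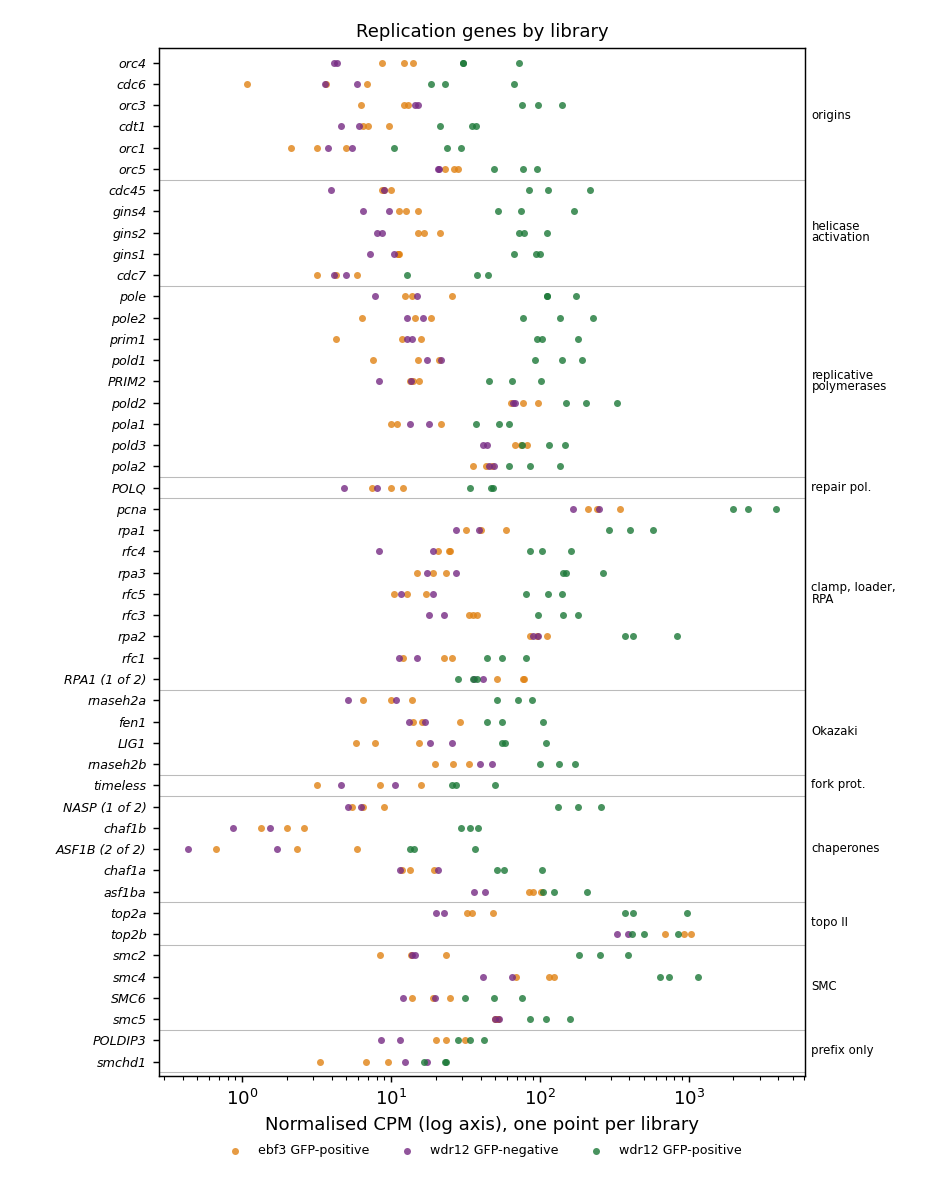
Normalised CPM (log x axis) of each of the 48 genes in each of the 8 libraries, 1 point per library, grouped by role. The green points of the wdr12 GFP-positive libraries stand to the right of the purple and orange control points in most rows; in the row of RPA1 (1 of 2) the ebf3 libraries stand furthest right, at 51.6 to 78.8 CPM.

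Replication factor A, which coats single-stranded DNA, was listed with 4 genes, and 2 of them carry the name of its large subunit. rpa1 (ENSORLG00000004856) stood at 579.99, 405 and 291 CPM in the wdr12 GFP-positive libraries, 27.4 and 38.98 in the GFP-negative libraries and 31.7, 40.5 and 59.1 in the ebf3 libraries, and differed by 3.68 ± 0.42 and 3.28 ± 0.35. rpa2 and rpa3, the smaller subunits, differed by 2.54 ± 0.39 and 3.06 ± 0.40 against GFP-negative and by 2.48 ± 0.33 and 3.28 ± 0.35 against ebf3 cells. RPA1 (1 of 2) (ENSORLG00000003368), in contrast, stood at 37.7, 35.8 and 28.05 CPM in the wdr12 GFP-positive libraries, 36.3 and 41.6 in the GFP-negative libraries and 78.8, 77.04 and 51.6 in the ebf3 libraries. All 3 ebf3 libraries stood above all 3 positive libraries, while the positive and GFP-negative libraries overlapped. Its log2 fold change was -0.20 ± 0.32 against GFP-negative cells, which did not pass (adjusted p = 0.757), and -1.03 ± 0.29 against ebf3 cells, which did (adjusted p = 0.015). That call was lost without ebf3 replicate 1 (adjusted p = 0.0753) or 2 (0.0592). Reads of near-identical copies may be split between such genes in the authors' counting, so the level of each copy is uncertain.

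The enzymes that finish Okazaki fragments, the short pieces of the lagging strand, were all 4 higher than in both controls, with medians of 1.96 and 2.57. rnaseh2a (ENSORLG00000004042), the catalytic subunit of the ribonuclease that removes RNA from DNA, stood at 88.4, 71.8 and 51.2 CPM in the wdr12 GFP-positive libraries, 10.9 and 5.15 in the GFP-negative libraries and 9.92, 13.9 and 6.49 in the ebf3 libraries. Positive and control libraries did not overlap, with differences of 3.15 ± 0.48 (adjusted p = 0.00035) and 2.79 ± 0.39 (adjusted p = 0.000114). rnaseh2b (ENSORLG00000011850), a second subunit of that enzyme, stood at 171, 135 and 99.7 CPM in the wdr12 GFP-positive libraries, 39.6 and 47.7 in the GFP-negative libraries and 19.7, 33.6 and 25.97 in the ebf3 libraries. Here both GFP-negative libraries stood above all 3 ebf3 libraries, and the positive libraries above both, by 1.63 ± 0.35 (adjusted p = 0.00402) and 2.36 ± 0.31 (adjusted p = 7.19e-05).

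LIG1 (ENSORLG00000002549), the ligase that seals the fragments, followed the same order of groups. It stood at 109.6, 58.02 and 55.5 CPM in the wdr12 GFP-positive libraries, 18.3 and 25.6 in the GFP-negative libraries and 7.85, 15.4 and 5.83 in the ebf3 libraries. The difference was 1.76 ± 0.46 against GFP-negative (adjusted p = 0.0129) and 2.93 ± 0.42 against ebf3 cells (adjusted p = 0.00012). fen1 (ENSORLG00000006361), the flap endonuclease, differed by 2.17 ± 0.46 and 1.79 ± 0.39. Without GFP-negative replicate 1 the calls against those cells were lost for LIG1 (adjusted p = 0.159), fen1 (0.0661) and rnaseh2b (0.0737), and that of LIG1 also without replicate 2 (0.0673) or without positive replicate 1 (0.0502).

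timeless (ENSORLG00000015066), which steadies stalled forks, had calls that rested on few libraries. It stood at 50.2, 25.5 and 27.3 CPM in the wdr12 GFP-positive libraries, 10.7 and 4.64 in the GFP-negative libraries and 3.17, 8.43 and 15.8 in the ebf3 libraries. The positive libraries stood above all controls, but control replicates differed from each other by more than a doubling in both groups. It differed by 2.17 ± 0.62 (adjusted p = 0.0222) and 1.92 ± 0.52 (adjusted p = 0.014). The first call was lost when the fit left out GFP-negative replicate 1 (adjusted p = 0.0542) or 2 (0.242), the second without ebf3 replicate 1 (0.054) or 2 (0.0608), and both without positive replicate 1 (0.0869 and 0.0682).

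The histone chaperones that rebuild chromatin behind the fork held 3 of the 6 largest differences against GFP-negative cells. All 5 were higher than in GFP-negative cells and 4 of 5 higher than in ebf3 cells, with medians of 4.25 and 2.83. NASP (1 of 2) (ENSORLG00000010548), a carrier of histone H3 and H4, stood at 258, 181 and 132 CPM in the wdr12 GFP-positive libraries, 6.31 and 5.15 in the GFP-negative libraries and 6.48, 5.48 and 8.99 in the ebf3 libraries. It had the largest log2 fold change of all 48 members in both comparisons, at 5.06 ± 0.44 (adjusted p = 3.8e-05) and 4.77 ± 0.36 (adjusted p = 4.08e-06). chaf1b (ENSORLG00000017915) and chaf1a (ENSORLG00000015193), subunits of chromatin assembly factor 1, differed by 4.78 ± 0.57 and 2.13 ± 0.43 against GFP-negative and by 4.09 ± 0.45 and 2.24 ± 0.37 against ebf3 cells. The GFP-negative libraries held only 4 and 9 reads of chaf1b, so the size of its fold change is poorly fixed. The call of chaf1a against GFP-negative cells was lost without their replicate 1 (adjusted p = 0.0673).

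The gene pair named for the chaperone ASF1B, which hands histones to chromatin assembly factor 1, did not move alike. asf1ba (ENSORLG00000007041) stood at 208, 125 and 105 CPM in the wdr12 GFP-positive libraries, 36.3 and 42.6 in the GFP-negative libraries and 89.99, 84.9 and 101 in the ebf3 libraries. Positive libraries stood above both control groups, and the ebf3 libraries above the GFP-negative ones. The difference passed against GFP-negative cells (1.88 ± 0.35, adjusted p = 0.00146) and not against ebf3 cells (0.66 ± 0.29, adjusted p = 0.122), although it passed there without positive replicate 3 (adjusted p = 0.0435). ASF1B (2 of 2) (ENSORLG00000014782) stood at 36.6, 13.4 and 14.3 CPM in the wdr12 GFP-positive libraries, 0.435 and 1.72 in the GFP-negative libraries and 2.34, 5.88 and 0.666 in the ebf3 libraries. It was called against both, by 4.25 ± 0.93 (adjusted p = 0.00448) and 2.83 ± 0.70 (adjusted p = 0.00763), on as few as 2 reads in a GFP-negative and 4 in an ebf3 library. The first call was lost when the fit left out GFP-negative replicate 1 (adjusted p = 0.0734) and the second without positive replicate 1 (0.0614).

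Of the topoisomerase II genes, which untangle DNA by passing strands through each other, only top2a was called. top2a (ENSORLG00000004407), the form that in mammals belongs to dividing cells, stood at 977, 373 and 425 CPM in the wdr12 GFP-positive libraries, 20.02 and 22.8 in the GFP-negative libraries and 48.1, 34.9 and 32.5 in the ebf3 libraries. Every positive library stood several times above the highest control library, by 4.78 ± 0.49 (adjusted p = 5.38e-05) and 3.94 ± 0.39 (adjusted p = 1.32e-05). top2b (ENSORLG00000008628), the form that in mammals is also present in neurons, stood at 845, 418 and 501 CPM in the wdr12 GFP-positive libraries, 331 and 391 in the GFP-negative libraries and 1035, 933 and 698 in the ebf3 libraries. Its positive libraries stood above the GFP-negative ones and overlapped with those of the ebf3 line. The log2 fold changes of 0.70 ± 0.35 (adjusted p = 0.194) and -0.60 ± 0.31 (adjusted p = 0.199) did not pass. Without positive replicate 1, the highest of its group, top2b was called lower than in ebf3 cells (-0.98, adjusted p = 0.0178).

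The SMC genes encode ring-forming ATPases, smc2 and smc4 those of condensin and smc5 and SMC6 those of a complex that acts in DNA repair. All 4 were higher than in both controls, with medians of 2.85 and 2.23. smc4 (ENSORLG00000006114) stood at 1154, 733 and 639 CPM in the wdr12 GFP-positive libraries, 41.6 and 64.9 in the GFP-negative libraries and 116, 124 and 69.2 in the ebf3 libraries. Its differences were 3.98 ± 0.43 (adjusted p = 6.36e-05) and 3.03 ± 0.35 (adjusted p = 2.61e-05), and those of its partner smc2 (ENSORLG00000004556) were 4.27 ± 0.49 (adjusted p = 7.18e-05) and 4.18 ± 0.41 (adjusted p = 1.25e-05). The repair pair had smaller values. smc5 (ENSORLG00000006574) stood at 161, 109.9 and 86.2 CPM in the wdr12 GFP-positive libraries, 50.04 and 53.2 in the GFP-negative libraries and 52.4, 51.5 and 49.6 in the ebf3 libraries. Its 5 control libraries lay within 4 CPM of each other, and the difference was 1.203 ± 0.33 (adjusted p = 0.016) and 1.22 ± 0.28 (adjusted p = 0.00499). SMC6 (ENSORLG00000013905) differed by 1.72 ± 0.45 and 1.44 ± 0.38. The calls of smc5 and SMC6 against GFP-negative cells were lost when the fit left out GFP-negative replicate 2 (adjusted p = 0.118 and 0.179), that of smc5 also without replicate 1 (0.147), and those of SMC6 in both comparisons without positive replicate 1 (0.0504 and 0.0564). That of SMC6 against ebf3 cells was lost too without ebf3 replicate 2 (0.0714).

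A pair of members entered by the start of their names and are not parts of the fork. POLDIP3 (ENSORLG00000014799), named in mammals for binding polymerase delta, stood at 41.9, 33.7 and 28.2 CPM in the wdr12 GFP-positive libraries, 11.5 and 8.59 in the GFP-negative libraries and 31.6, 23.3 and 19.98 in the ebf3 libraries. It passed against GFP-negative cells (1.78 ± 0.40, adjusted p = 0.00489) and overlapped with the ebf3 libraries (0.47 ± 0.33, adjusted p = 0.36). The first call was lost when the fit left out GFP-negative replicate 2 (adjusted p = 0.092). smchd1 (ENSORLG00000011268), a chromatin protein known in mouse from the silenced X chromosome, stood at 23.1, 23.3 and 16.7 CPM in the wdr12 GFP-positive libraries, 12.4 and 17.3 in the GFP-negative libraries and 3.31, 6.82 and 9.49 in the ebf3 libraries. It passed against ebf3 cells (1.69 ± 0.44, adjusted p = 0.0101) and not against GFP-negative cells (0.50 ± 0.48, adjusted p = 0.561), where the libraries overlapped.

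The members varied together across the replicates of the positive sort. They took 1.09, 0.849 and 0.576% of all counts in wdr12 GFP-positive replicates 1, 2 and 3, 0.183 and 0.162% in the GFP-negative and 0.247, 0.233 and 0.252% in the ebf3 libraries. Even the lowest positive library held more than any control library. In the controls top2b supplied many of these counts. It held 1521 of 6404 and 2274 of 9370 member counts in the GFP-negative libraries. In the ebf3 libraries it held 7509 of 17569, 6978 of 17952 and 4191 of 13215. In the positive libraries it held 7801 of 125851, 3622 of 72257 and 3892 of 54556. Replicate 1 gave the highest CPM of the group in 44 of 48 members, which held for 34.5% of all genes tested and 37.4% of those with a symbol. Replicate 3 gave the lowest in 38, which held for 23.6 and 25.5%. The median ratio of replicate 1 to replicate 2 over the members was 1.54, that of replicate 1 to replicate 3 was 1.89 and that of replicate 2 to replicate 3 was 1.28. The 4 exceptions, highest in replicate 2, were cdc7, gins1, POLQ and smchd1.

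Over the same 3 libraries the progenitor markers took 0.434, 0.528 and 0.307% of counts, mature neuron markers 0.218, 0.164 and 0.208%, radial glia and astroglia markers 0.881, 0.661 and 1.19% and oligodendrocyte markers 0.0494, 0.0692 and 0.105%. Replicate 3, the lowest in replication genes, was thus also the lowest in progenitor markers and the highest in the radial glia and oligodendrocyte lists. Replicate 1, the highest in replication genes, was not the highest in progenitor markers, which replicate 2 was. The progenitor list includes the proliferation gene mki67, so it is not independent of cells in cycle. Microglia and leukocyte markers took 0.0189, 0.0370 and 0.0343% and were also highest in replicate 2. Endothelium and mural markers (3 genes) took 0.0188, 0.0162 and 0.0104%, in the same order as the replication genes. Erythrocyte markers took 0.0103, 0.0434 and 0.0713%, in the reverse order. The part of these in the spread was not tested. The coefficient of variation between replicates had a median over the members of 34.9% in wdr12 GFP-positive, 20.1% in GFP-negative and 26.1% in ebf3 cells, beside 39.1, 22.02 and 34.5% for all genes tested.

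**Figure D3:**
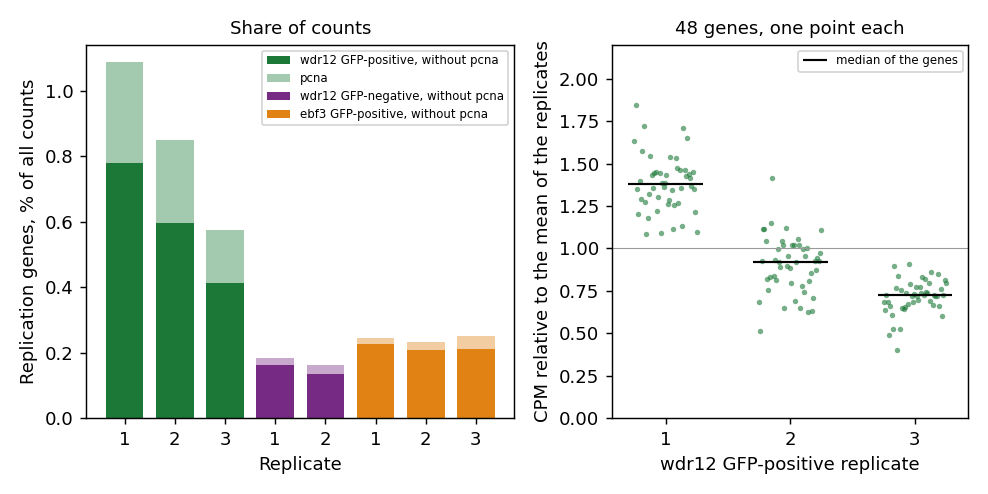
Left, share of all counts (%) taken by the 48 genes in each library, with the share of pcna in a lighter shade; right, CPM of each gene in each wdr12 GFP-positive replicate relative to its mean over the 3, with the median of the genes as a line. The positive libraries hold 0.576 to 1.09% and the controls 0.162 to 0.252%, and replicate 1 is the highest of its group for 44 of 48 genes.

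Ratios of 2 genes within a library do not depend on how libraries are scaled, and show where partners or copies differed unequally. The pairs were chosen after their values were seen, so their ratios are given without a test. The ratios also depend in part on how members were found. The authors had listed top2a and rpa1 as higher than in both controls. They listed RPA1 (1 of 2) only as lower than in ebf3 cells, and top2b only as lower in GFP-negative than in ebf3 cells. The ratio of top2a to top2b counts was 1.16, 0.892 and 0.848 in the positive libraries, 0.0605 and 0.0585 in the GFP-negative and 0.0465, 0.0374 and 0.0465 in the ebf3 libraries. That of rpa1 to RPA1 (1 of 2) was 15.4, 11.3 and 10.4, against 0.754 and 0.938 and against 0.402, 0.526 and 1.15. In both pairs the lowest positive library lay several times above the highest control.

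Some other pairs were also unequal, among them partners within a complex. The ratio of pold1 to pold3 counts ran from 1.21 to 1.30 in the positive and from 0.102 to 0.496 in the control libraries, and that of prim1 to pola2 from 1.12 to 1.68 and from 0.0981 to 0.453. Condensin's smc2 against the repair gene smc5 gave 2.12 to 2.42 and 0.161 to 0.457. For smc2 to smc4, both of condensin, the ratio ran from 0.286 to 0.347 in the positive and from 0.0725 to 0.335 in the control libraries. That of gins1 to gins2 ran from 0.855 to 1.39 and from 0.526 to 1.30. In both pairs the ranges overlapped only through the GFP-negative libraries (0.335 and 0.225 for smc2 to smc4, 0.825 and 1.30 for gins1 to gins2). All ebf3 libraries lay below every positive library (0.0725, 0.190 and 0.197 for smc2 to smc4, 0.526, 0.752 and 0.670 for gins1 to gins2). Ratios of ASF1B (2 of 2) to asf1ba (0.107 to 0.177 and 0.00658 to 0.0693), chaf1b to chaf1a (0.375 to 0.598 and 0.0690 to 0.194) and orc3 to orc5 (1.24 to 1.53 and 0.226 to 0.729) did not overlap. For rnaseh2a to rnaseh2b the gap was narrow, with 0.514 to 0.533 in the positive and 0.108 to 0.503 in the control libraries.

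**Figure D4:**
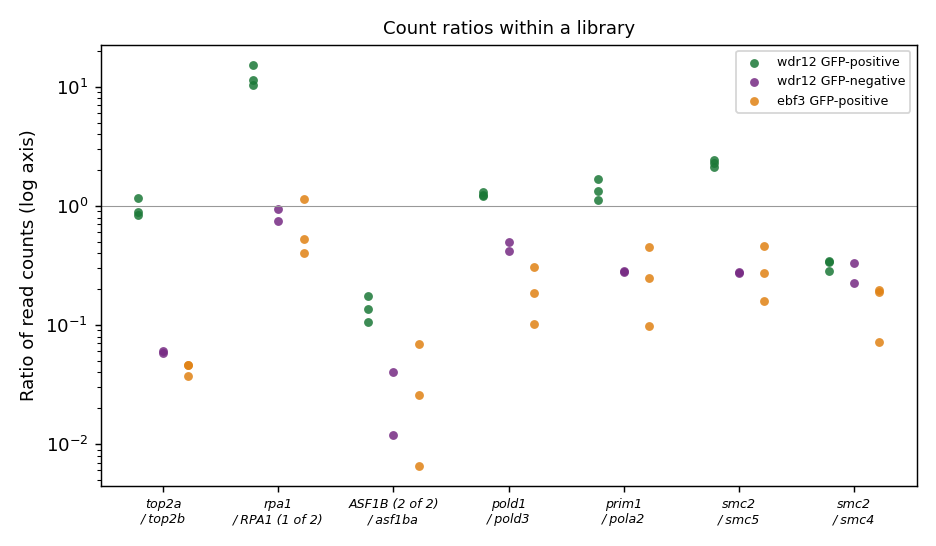
Ratio of read counts of 2 genes within each library (log y axis), 1 point per library, for 7 gene pairs in wdr12 GFP-positive (green), GFP-negative (purple) and ebf3 GFP-positive (orange) cells. For top2a to top2b the positive libraries lie at 0.848 to 1.16 and the controls at 0.0374 to 0.0605. For smc2 to smc4 the positive libraries overlap with the GFP-negative libraries and lie above all ebf3 libraries.

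The controls were then set against each other, the mixed sort of the wdr12 line against the ebf3 sort. In this comparison only 3 members, asf1ba, POLDIP3 and top2b, had been listed by the authors, all as lower in GFP-negative cells. As top2b was listed nowhere else, it is a member only through that difference. At an adjusted p under 0.05 in edgeR's quasi-likelihood test no member was called in either direction, where 3.16% of all genes tested were higher and 1.96% lower. At an unadjusted p under 0.05, 9 members (18.8%) were lower in GFP-negative cells, where 9.53% of all genes tested and 20.9% of those with a symbol were, and 3 (6.25%) were higher, where 9.42 and 23.96% were. DESeq2's test called 3 lower and 0 higher, where it called 5.5 and 6.13% of the genes it gave an adjusted p. By their own adjusted p, the authors' deposited table gave smc4, asf1ba, POLDIP3, pold3 and top2b as lower and 0 members as higher, where 6.14 and 5.88% of the genes in that table were. Every GFP-negative library lay below every ebf3 library in 15 members (31.2%), which held for 19.5% of all genes tested and 29.1% of those with a symbol. All lay above in 4 members (8.33%), which held for 21.9 and 37.2%. The median log2 fold change of the 48 was -0.35, from -1.46 to 1.19, beside 0.01 for all genes tested and 0.19 for genes with a symbol. It was below 0 in 32 members (66.7%), where it was in 49.3% of all genes tested and 44.5% of those with a symbol. At the unadjusted p, the shares of members lower and higher were thus below those of genes with a symbol.

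**Figure D5:**
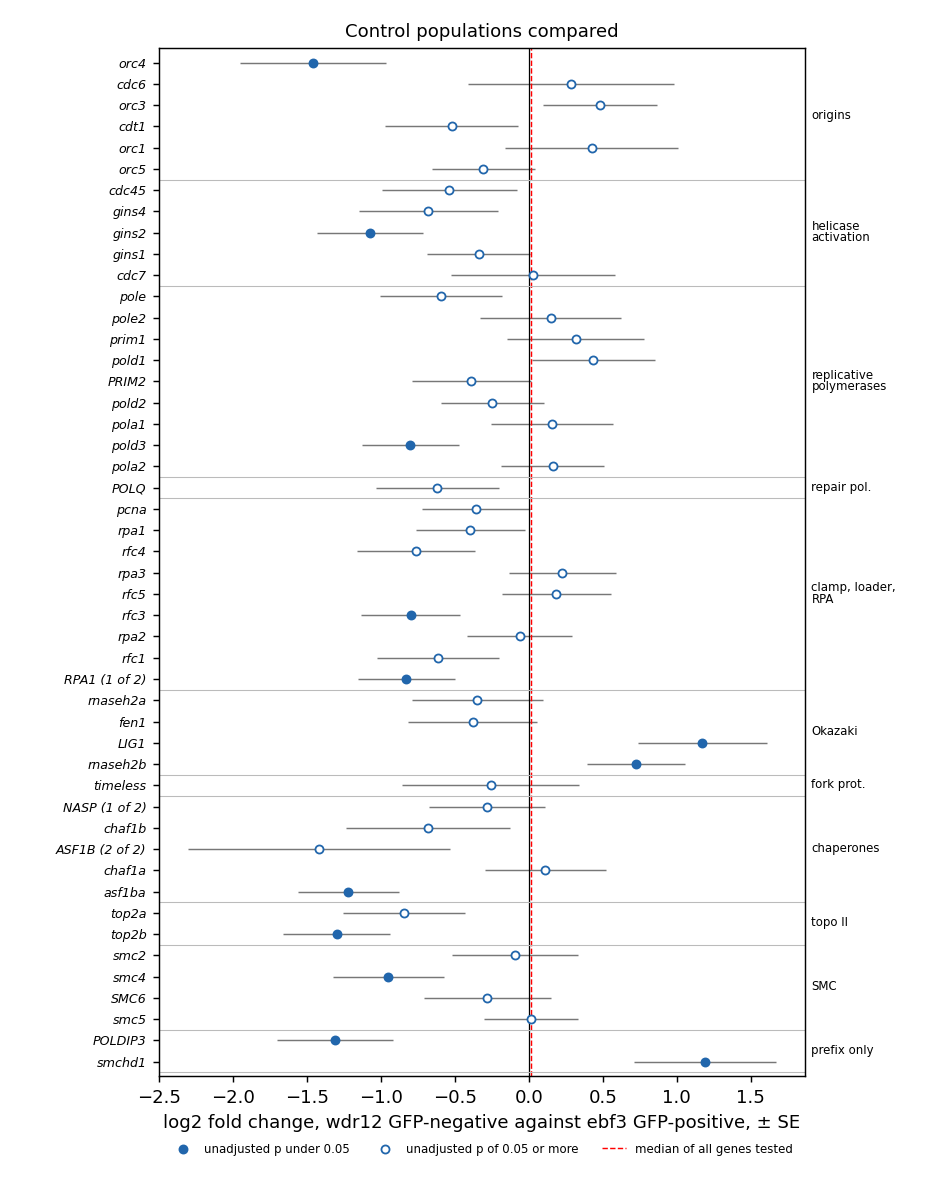
Log2 fold change (x axis, ± SE) of each of the 48 genes in the GFP-negative sort against the ebf3 sort, grouped by role; filled points had an unadjusted p under 0.05, and none passed after adjustment. Filled points lie below 0 for 9 genes and above 0 for 3, and the dashed line is the median of all genes tested, 0.01.

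The 9 members lower at an unadjusted p, named after their values were seen, came from several roles. The log2 fold change was -1.46 ± 0.49 for orc4 (adjusted p = 0.105), -1.31 ± 0.39 for POLDIP3 (adjusted p = 0.0675), -1.300 ± 0.36 for top2b (adjusted p = 0.0501, and from 0.00259 to 0.398 over the alternatives, 10 of 15 of which called it) and -1.22 ± 0.34 for asf1ba (adjusted p = 0.0514). In each of these every GFP-negative library lay below every ebf3 library. Of them, POLDIP3, top2b and asf1ba had been listed by the authors as lower there, and top2b entered the set through that listing alone. It was -1.07 ± 0.36 for gins2, -0.95 ± 0.38 for smc4, -0.83 ± 0.33 for RPA1 (1 of 2), -0.80 ± 0.33 for pold3 and -0.80 ± 0.33 for rfc3, with adjusted p between 0.0983 and 0.2. The 3 members that leaned the other way were LIG1 (1.17 ± 0.44, adjusted p = 0.149), rnaseh2b (0.73 ± 0.33, adjusted p = 0.25) and smchd1 (1.19 ± 0.48, adjusted p = 0.181). LIG1 and rnaseh2b are both of the Okazaki fragment group, but its other genes had the opposite sign. These were fen1 (-0.38 ± 0.44, adjusted p = 0.744) and rnaseh2a (-0.35 ± 0.44, adjusted p = 0.774).

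The median SE of a member was 0.41 in this comparison. pcna (-0.36 ± 0.37, adjusted p = 0.696), cdc45 (-0.54 ± 0.46, adjusted p = 0.617) and NASP (1 of 2) (-0.28 ± 0.39, adjusted p = 0.798) had overlapping libraries in the controls. Not all members did. The 15 with every GFP-negative library below every ebf3 library are 31.2% of the members, beside 29.1% of genes with a symbol. They were top2a, top2b, smc4, gins1, gins2, gins4, cdt1, orc4, orc5, rfc3, rfc4, RPA1 (1 of 2), asf1ba, POLDIP3 and pold3. The 4 above were orc3, LIG1, rnaseh2b and smchd1, or 8.33% beside 37.2%. The GFP-negative sort is described as holding cycling progenitors and the ebf3 sort as cells that have left the cell cycle. The part of this in these values was not tested. Every library without a wdr12 GFP-positive label still held counts of every member, at 2 to 2274 reads in GFP-negative and 4 to 7509 in ebf3 cells. The 5 globin genes took 4.27 and 15.7% of all reads in the GFP-negative sort, which leaves fewer reads for all other genes there. With the globin genes removed, the median log2 fold change of the members between the controls was -0.346, as in the reported fit.

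Other genes of replication, on lists drawn up with earlier results known and again limited to genes the authors had listed, were in most cases higher in the positive sort; the gene or genes named first for a list had its smallest adjusted p. For each list, the shares to compare are 9.92% of all genes tested higher than in GFP-negative and 12.7% than in ebf3 cells. Among genes with a symbol they are 29.9 and 37.9%. The medians are 0.05 and 0.01 for all genes tested and 0.31 and 0.28 for those with a symbol. All 6 MCM helicase genes were higher than in both controls, with medians of 4.27 and 3.99, among them mcm4 (ENSORLG00000017467) (4.27 ± 0.45 and 3.91 ± 0.36). All 8 genes of deoxynucleotide supply were higher in both (medians 2.96 and 3.33), among them rrm1 (1 of 2) (ENSORLG00000006731), a copy of the large subunit of ribonucleotide reductase (3.86 ± 0.41 and 3.48 ± 0.33). Of 9 partners of cohesin, condensin and the Smc5/6 complex, 9 were higher against GFP-negative cells and 7 against ebf3 cells, with ncapd2 (ENSORLG00000012197) of condensin at 3.81 ± 0.43 and ncapg of condensin at 3.28 ± 0.41.

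Of 19 accessory and checkpoint genes, 16 were higher than in GFP-negative cells and 16 than in ebf3 cells, among them hells (ENSORLG00000000987), a chromatin remodeller (4.66 ± 0.56 and 4.56 ± 0.46). One of the 19, top1 (ENSORLG00000009314), topoisomerase I, was lower than in ebf3 cells in the positive sort (-0.83 ± 0.25, adjusted p = 0.0262) and in the GFP-negative sort (-1.12 ± 0.29, adjusted p = 0.0378). Of 3 further polymerases outside the set, polg (ENSORLG00000011695), the mitochondrial polymerase, was higher than in both controls (1.296 ± 0.43 and 1.37 ± 0.37). rev1 (ENSORLG00000012211), which copies past damaged bases, was lower in the positive sort than in ebf3 cells (-1.103 ± 0.36, adjusted p = 0.0389). polb (ENSORLG00000002509), of base excision repair, did not pass in the positive sort (1.06 ± 0.38 and -0.48 ± 0.32) but was lower in GFP-negative than in ebf3 cells (-1.54 ± 0.38, adjusted p = 0.0303). In the other 3 lists, the smallest adjusted p between the controls was 0.0521 for ncapd2 (-1.38).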

How the data were processed

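RNA of sorted cells was read as single 50 bp reads from libraries made with 4 ng of RNA, per the labels' protocols. Per the submitters' processing notes, CASAVA 1.8.2, FastQC 0.10.1, TopHat2 and DESeq were used; no label or header names the read counter or the genome build. In the deposited tables, per the file headers, each gene has a whole-number count for each library, and beside it the authors' log2 fold change and p-value with its adjusted form for each comparison. No gene listed in a table had a total below 11 there, so genes with fewer counts are not in them. Counts were joined by gene ID over 3 tables: 16957 genes had all 8 libraries, and 131234 repeated cells held equal counts in each table, with 0 that differed. No row was set aside as naming no gene.

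All libraries entered 1 model of edgeR 4.0.16, run in R 4.3.3 (group model without a replicate term, TMM factors, default filterByExpr, quasi-likelihood F test, two-sided, Benjamini-Hochberg over the 15640 genes left, threshold 0.05). Its common biological coefficient of variation came to 0.514, and an SE was computed as the absolute log2 fold change divided by the root of F. DESeq2 1.42.0, RLE and upper-quartile factors, no filter, fits of only the groups compared, a replicate block, removal of globin genes and leaving out each library in turn were the alternatives; all were listed with the design. Tables were handled with pandas 2.3.3 in Python 3.11.15 and drawn with matplotlib 3.10.9.

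The members, roles, gene lists and marker lists were chosen with earlier results of these data known. Full values are given for the member of each role with the smallest adjusted p and for that with the smallest absolute log2 fold change against GFP-negative cells, and for each member not called higher in a comparison of the positive sort or called lower; other members, the gene pairs and the genes named between the controls were chosen after their values were seen. From each further list the called gene with the smallest adjusted p and each gene called lower are named. Gene IDs could not be paired with a reference table, so no coordinates or sequences are given, and a planned search for replication genes by reference names was not run.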

Additional observations from a re-analysis of the deposited data

How the results depend on the processing

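In the comparisons of wdr12 GFP-positive cells, all 48 members kept the sign of their log2 fold change under the 15 alternatives run, 29 of 44 calls against GFP-negative cells and 39 of 44 against ebf3 cells passed in each of them. Leaving out 1 library at a time gave 33 to 44 members higher than in GFP-negative cells with a median log2 fold change of 2.49 to 2.94, 39 to 45 higher and 0 to 2 lower than in ebf3 cells with a median of 2.09 to 2.57, and 31 to 43 higher than in both. Without GFP-negative replicate 1 the members higher than in both numbered 31 and without replicate 2 they numbered 32; in these fits the library left is assumed to vary like those of the other groups, and all genes called higher than in GFP-negative cells fell to as few as 557 from 1551. Between the controls, 0 members were called higher in any alternative, while the number lower, 0 in the reported fit, was 2 with RLE factors, 2 with upper-quartile factors, 3 in DESeq2's Wald test, 3 in fits of only the groups compared and 1 without the globin genes, and 0 to 3 with 1 library left out. All genes called lower there numbered 307 in the reported fit and 316, 423, 710, 753 and 308 in the same order, and 25 to 576 with 1 library left out. All genes called higher there numbered 494 in the reported fit and 528, 525, 791, 852 and 489 in the same order. For the positive sort against ebf3 cells, leaving out 1 library gave 1537 to 1994 of all genes higher and 1251 to 1852 lower. The median of the members between the controls was -0.39 to -0.22 with 1 library left out, and -0.22 without ebf3 replicate 3. The cause was not tested. Deviations from the group means were correlated for libraries of equal number. For GFP-negative with wdr12 GFP-positive libraries, r was -0.207 for replicate 1 and -0.242 for replicate 2. For wdr12 GFP-positive with ebf3 libraries, r ran from -0.102 to 0.209. The deviations of only 2 GFP-negative libraries mirror each other, so their r values cannot show whether sorts of equal number shared a pool. Pairing by number was therefore not settled. With a replicate block, 4 members, asf1ba, POLDIP3, orc4 and top2b, were called lower in GFP-negative than in ebf3 cells, beside 373 of all genes, and no call in the other comparisons changed. That block also moved the median log2 fold change of all genes between the controls to 0.14. Counts of 10 or fewer in a library leave the fold changes of chaf1b, ASF1B (2 of 2) and cdc6 loosely fixed.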
